A study of Mus musculus with 4 samples.

Results

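The genes described here are the 3 TGF-beta ligands of the mouse (Tgfb1, Tgfb2 and Tgfb3) and 7 genes from the families of proteins that hold or release them: the integrin chains Itgb6, Itgav and Itgb8, the latent TGF-beta binding proteins Ltbp1, Ltbp2 and Ltbp3, and thrombospondin-1 (Thbs1). They were taken by symbol, and all 10 of 10 were found in the gene table of 50766 symbols. They were measured in 4 single-cell RNA libraries of mouse liver, 1 per mouse, from cells labelled as biliary epithelial cells (BECs, which line the bile ducts). All 4 mice carried the genotype Sox9EGFP, so the allele is shared by controls and treated animals, and every library was made 7 days after surgery. In 2 mice the surgery was a sham operation and in 2 it was bile duct ligation (BDL), which blocks bile flow. The age of the mice and the way the cells were purified are not given in the sources used here.

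TGF-beta is secreted bound to its own propeptide, in a latent complex that cannot reach the receptor. A latent TGF-beta binding protein ties this complex to the extracellular matrix, and integrins that contain the alpha V chain (Itgav) with beta 6 (Itgb6) or beta 8 (Itgb8) bind the propeptides of Tgfb1 and Tgfb3 and free the ligand. Thrombospondin-1, a matrix protein, can also release the ligand, by binding the latent complex. In injured liver, biliary epithelium is a known site of the alpha V beta 6 integrin, and active TGF-beta is a main signal for matrix production by mesenchymal cells.

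The libraries held 2089 to 4065 cells and 10024577 to 33809650 unique molecular identifiers (UMIs, counted transcripts). Depth differed by group: sham cells had a median of 3260 and 2610 UMIs, BDL cells one of 7058 and 7793. No cell barcode was shared between libraries (0 of 12211). In 2 libraries the group written in the deposited cell table contradicts the sample label: the table of sham 2 reads BDL and that of BDL 2 reads sham. Groups below follow the sample labels, replicate numbers follow sample order and pair nothing, and values from sham 1 and BDL 1 alone, where table and label match, are given beside the results over all BEC-like and all mesenchymal-like cells. After clustering, 10968 cells were called BEC-like from 11 biliary markers (2617 and 2589 in sham, 1964 and 3798 in BDL). The 11 markers summed to 10343 to 11293 CPM (UMIs scaled to a common library total) in the BEC-like cells of each library, so the labelled cell type was present in all. A further 807 cells were mesenchymal-like, 215 endothelial-like and 79 hepatocyte-like, and a cluster of 98 cells carried macrophage and B cell markers together and is called the immune cluster.

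Promoter sequence is shown for 4 members that the results below turn on: Itgb6 with its partner chain Itgav, Ltbp2 for its large difference, and Ltbp1, whose difference varied between groups of cells. Windows of 250 bases before the RefSeq transcription start (GRCm38.p6) were matched by symbol for 8 of 10 members, not for Tgfb3 and Thbs1, and Itgb6 and Ltbp1 have 2 starts each. Capitals mark matches to CAGAC or its reverse complement GTCTG, the core letters of the SMAD-binding CAGA box. The Ltbp2 window lies at chr12:84876492-84876741 on the minus strand, that of the first Itgb6 start at chr2:60722604-60722853 on the minus strand and that of Itgav at chr2:83724147-83724396 on the plus strand. The windows of Ltbp1 lie at chr17:75005279-75005528 for the first start and chr17:75178531-75178780 for the second, both on the plus strand.
Ltbp2: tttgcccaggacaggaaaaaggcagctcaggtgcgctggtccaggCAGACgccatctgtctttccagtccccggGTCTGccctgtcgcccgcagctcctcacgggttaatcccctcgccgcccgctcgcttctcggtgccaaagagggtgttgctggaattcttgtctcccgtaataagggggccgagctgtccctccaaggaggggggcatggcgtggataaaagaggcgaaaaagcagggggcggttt
Itgb6 first start: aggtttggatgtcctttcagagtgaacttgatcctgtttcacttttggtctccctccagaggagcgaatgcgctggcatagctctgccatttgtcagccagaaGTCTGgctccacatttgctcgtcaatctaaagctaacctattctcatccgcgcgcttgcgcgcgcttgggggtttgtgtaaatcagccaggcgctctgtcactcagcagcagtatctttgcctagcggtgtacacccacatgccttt
Itgav: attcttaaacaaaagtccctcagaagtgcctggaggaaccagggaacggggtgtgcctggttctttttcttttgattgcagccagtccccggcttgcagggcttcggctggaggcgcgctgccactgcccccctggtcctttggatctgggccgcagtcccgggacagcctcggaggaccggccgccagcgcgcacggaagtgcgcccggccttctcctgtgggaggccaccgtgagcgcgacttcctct
Ltbp1 first start: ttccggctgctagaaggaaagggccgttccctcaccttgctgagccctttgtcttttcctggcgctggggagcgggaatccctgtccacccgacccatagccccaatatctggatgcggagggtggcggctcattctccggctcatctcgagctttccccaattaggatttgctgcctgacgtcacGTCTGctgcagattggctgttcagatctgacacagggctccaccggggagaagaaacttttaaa
Ltbp1 second start: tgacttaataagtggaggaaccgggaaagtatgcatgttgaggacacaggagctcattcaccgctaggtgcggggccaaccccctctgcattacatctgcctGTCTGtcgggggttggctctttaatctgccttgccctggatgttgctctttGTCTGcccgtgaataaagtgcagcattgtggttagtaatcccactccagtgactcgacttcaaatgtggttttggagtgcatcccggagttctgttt

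Ltbp2 had 2 matches in this window, from base -205 to -201 as CAGAC and from -176 to -172 as GTCTG, counted back from the start site. Itgb6 had 1 at its first start, from -147 to -143, and 0 at its second, which is not shown, and Itgav had 0. At Ltbp1, the first start had 1 match and the second had 2. Of the windows not shown, Tgfb2 had 2 matches, Itgb8 and Ltbp3 had 1 each and Tgfb1 had 0, so genes with and without a call held them. These letters are common: 42.19% of 32851 RefSeq windows of this length held at least 1 match on either strand. TGANTCA for AP-1 and GGAATG for TEAD were searched on both strands as well. Of all windows, 6.75% and 12.64% held them, and the windows of the 8 members held 0, so no match overlapped another motif. A match is a run of letters and was not tested as a binding site.

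In BEC-like cells, 7 of the 10 genes were higher after BDL and 0 passed the test in the other direction (edgeR quasi-likelihood test on UMIs summed per mouse, n = 2 per group, adjusted p under 0.05 over all genes). The 7 were Itgb6, Itgav, Thbs1, Ltbp1, Ltbp2, Ltbp3 and Tgfb1. Among all 15966 genes tested, 27.4% passed, 14.4% as higher and 13.0% as lower, so a large part of the transcriptome differed between the groups. The median log2 fold change was 1.09 over the 10 genes and -0.02 over all genes tested. In CPM, both BDL libraries were above both sham libraries for 8 of the 10 genes, against 33.9% of all genes tested, and below them for 2, against 34.9%.

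**Figure D1:**
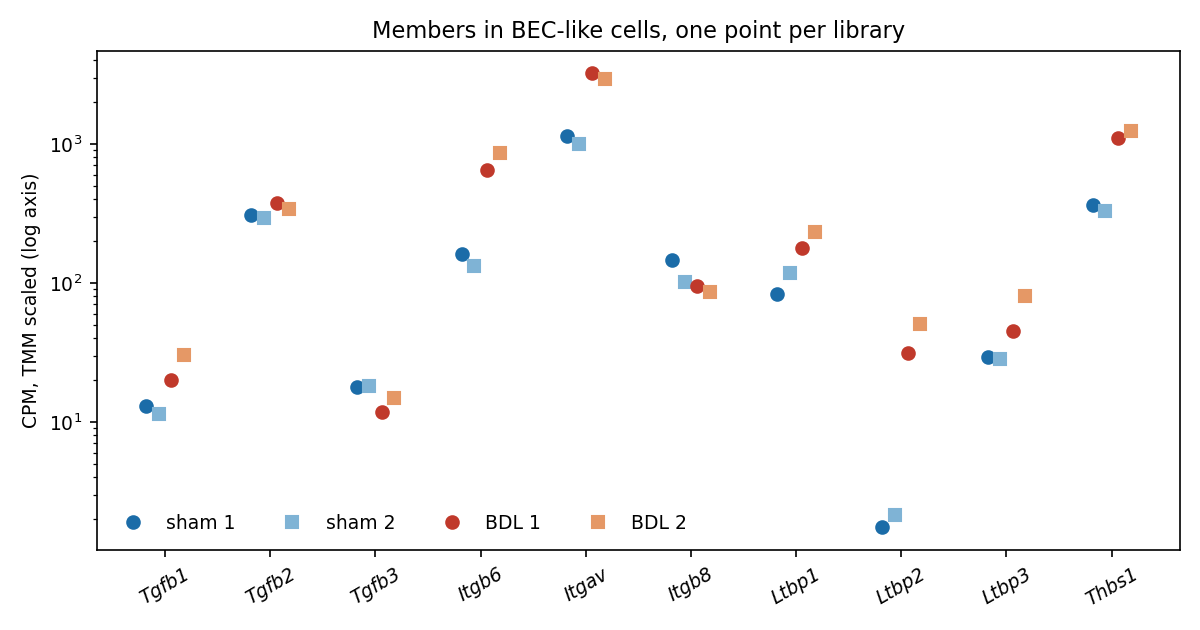
CPM (TMM scaled, log axis) of the 10 genes in BEC-like cells, with 1 point per library (blue sham, red and orange BDL). The BDL points sit above the sham points for 8 genes, most widely for Ltbp2 (31.3 and 51.0 against 1.75 and 2.13), and below them for Tgfb3 and Itgb8.

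Of the integrin chains, Itgb6 showed the larger change. Its level in BEC-like cells was 161 and 131 CPM in sham 1 and sham 2 and 645 and 861 CPM in BDL 1 and BDL 2, the order used for all values that follow. The groups did not overlap, and the lower BDL library was well above the higher sham library. The log2 fold change was 2.36 ± 0.18 (SE, adjusted p = 0.000504). Its partner chain Itgav stood at 1138 and 995 CPM in sham and 3213 and 2955 CPM in BDL. Itgav was already abundant in sham BEC-like cells, and rose by 1.53 ± 0.14 on the log2 scale (SE, adjusted p = 0.00083). Itgb8, the other beta chain that binds latent TGF-beta, went the other way without passing the test: 146 and 101 CPM in sham against 94.7 and 85.7 CPM in BDL. The sham libraries differed from each other by more than sham 2 did from BDL 1, and the log2 fold change of Itgb8 was -0.46 ± 0.18 (SE, adjusted p = 0.102). Of 24 alternative fits, 4 called Itgb8 lower: without BDL 1 (adjusted p = 0.0136) and in 3 of the 8 sublibraries taken alone (adjusted p = 0.0311, 0.0186 and 0.0279). From sham 1 and BDL 1 alone, the log2 difference of Itgb8 was -0.53.

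Thbs1, the matrix protein that can release latent ligand, measured 361 and 332 CPM in sham and 1100 and 1233 CPM in BDL. Each group was tight, and Thbs1 rose by 1.75 ± 0.13 on the log2 scale (SE, adjusted p = 0.000424). For Itgb6, Itgav and Thbs1 the adjusted p stayed under 0.05 in all 24 alternative fits of BEC-like cells, the highest being 0.00884. From sham 1 and BDL 1 alone, with no test, the log2 differences were 2.09 for Itgb6, 1.59 for Itgav and 1.70 for Thbs1.

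All 3 latent TGF-beta binding proteins were higher in BDL. Ltbp2, which is built like its relatives but is known not to bind the latent complex, was near the floor in sham and had the largest fold change of the 10 genes. The sham BEC-like cells gave 1.75 and 2.13 CPM, a total of 35 UMIs, and the BDL cells gave 31.3 and 51.0 CPM, a total of 2062 UMIs. The log2 fold change was 4.42 ± 0.32 (SE, adjusted p = 0.000424), and it was 4.16 from sham 1 and BDL 1 alone. Ltbp2 kept an adjusted p under 0.05 in all 23 alternatives that tested it. Ltbp1, the main tether of the latent complex in many tissues, measured 83.4 and 117 CPM in sham and 177 and 232 CPM in BDL (log2 fold change 1.03 ± 0.20 SE, adjusted p = 0.0114). Ltbp3 measured 29.3 and 28.3 CPM in sham and 45.4 and 80.5 CPM in BDL (1.13 ± 0.26 SE, adjusted p = 0.0208). The BDL libraries of Ltbp3 differed from each other by more than BDL 1 did from sham.

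Among the ligands, Tgfb1 alone passed. It was a low transcript in BEC-like cells, at 12.9 and 11.4 CPM in sham and 20.1 and 30.1 CPM in BDL, and the groups did not overlap (log2 fold change 1.05 ± 0.23 SE, adjusted p = 0.0171). Tgfb2 was the most abundant ligand transcript in these cells, at 306 and 292 CPM in sham and 377 and 338 CPM in BDL. Its difference was small and did not pass (0.26 ± 0.12 SE, adjusted p = 0.144), except without a filter on low counts (adjusted p = 0.0316). Tgfb3 measured 17.9 and 18.1 CPM in sham and 11.7 and 14.8 CPM in BDL, lower in both BDL libraries, and did not pass (-0.44 ± 0.18 SE, adjusted p = 0.112). Without BDL 2, the lower level of Tgfb3 passed (adjusted p = 0.0433). From sham 1 and BDL 1 alone, the log2 differences were 0.39 for Tgfb2 and -0.51 for Tgfb3.

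The calls of Tgfb1 and Ltbp3 were lost without either sham library, and that of Ltbp1 without sham 1. Without sham 1 the log2 fold changes were 1.16, 0.82 and 1.17 for Tgfb1, Ltbp1 and Ltbp3 (adjusted p = 0.0961, 0.081 and 0.13), and 4 of the 10 genes passed, against 7.52% of all genes tested. Without sham 2 they were 0.99 for Tgfb1 and 1.13 for Ltbp3 (adjusted p = 0.107 and 0.11), Ltbp1 passed at 1.32 (adjusted p = 0.0196), and 5 of the 10 genes passed, against 9.09%. The size of these 3 differences also varied with the BDL library left out. Without BDL 1 the log2 fold changes were 1.33, 1.24 and 1.51 for Tgfb1, Ltbp1 and Ltbp3, and without BDL 2 they were 0.73, 0.83 and 0.66. From sham 1 and BDL 1 alone, the log2 differences were 0.72 for Tgfb1, 1.18 for Ltbp1 and 0.72 for Ltbp3.

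Different clusters held most BEC-like cells of each group, which bears on every value above. Sham cells lay mainly in clusters led by Kcnma1 and Tox2, by Fos and Ddit4l, by Sgcd and Tmeff2 and by Mmp25 and Scin, and BDL cells in clusters led by Ccn2 and Fgd3, Nos2 and Rasal1, Cpe, Dmbt1, Mki67 and Iqch. The cluster led by Fos and Ddit4l, with 634 and 904 sham cells and 7 and 1 BDL cells, had the hepatocyte gene Alb among its 10 leading genes. The BEC-like cells left without this cluster still summed to 1553 and 1550 CPM of hepatocyte markers in sham, against 424 and 423 CPM in BDL. In them, 6 of the 10 genes passed, against 21.5% of all genes tested. Ltbp1 was the gene that no longer passed (log2 fold change 0.61 ± 0.23 SE, adjusted p = 0.103), while Itgb6 stood at 2.02 and Ltbp2 at 4.48. Cells with a UMI of the cycling genes Mki67 or Top2a made up 5.81% and 4.37% of sham and 25.5% and 25.6% of BDL BEC-like cells, unthinned, and without them 7 of the 10 genes passed, against 26.9% of all genes.

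RNA of other cell types in the BEC-like sums also moved with the groups. The 10 hepatocyte markers summed to 1620 and 1682 CPM in sham and 424 and 423 CPM in BDL, the 10 mesenchymal markers to 106 and 105 against 17.5 and 31.6 CPM, and the 8 endothelial markers to 48.2 and 48.4 against 23.9 and 11.4 CPM. Of 12 marker lists of other cell types, 6 summed lower in both BDL libraries, these 3 among them. Another 4 summed higher in both: mesothelial markers at 15.8 and 27.3 CPM in sham against 31.0 and 58.5 CPM in BDL, plasma cell markers at 109 and 101 against 123 and 138, dendritic cell markers at 39.3 and 38.6 against 57.1 and 40.3, and erythroid markers under 1 CPM throughout. The part of this RNA in the levels of the 10 genes was not tested. The mesenchymal sum in BEC-like cells was 0.508% and 0.677% of that in mesenchymal-like cells in sham and 0.077% and 0.117% in BDL, while Ltbp2 in BEC-like cells was 2.22% and 2.24% of its mesenchymal level in sham and 10.99% and 10.3% in BDL. Leaving out every cell with 2 or more UMIs of other-class markers kept 287, 368, 331 and 516 cells, and 5 of the 10 genes passed, against 13.7% of all genes tested. Among these few cells Ltbp1 showed no call (log2 fold change 0.15, adjusted p = 0.762), and Tgfb1 missed the threshold at 1.09 (adjusted p = 0.101).

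Read as CPM per kilobase of exon (exon lengths of GENCODE vM21, a level that allows genes to be compared), Itgav was the highest of the 10 in sham BEC-like cells at 100.1 ± 16.8 (SD, n = 2). Thbs1 followed at 57.5 ± 7.66 and Tgfb2 at 52.0 ± 5.62, which differed by less than their spread. Itgb6 (20.8 ± 4.50) stood above Itgb8 (11.4 ± 3.69) and Ltbp1 (9.35 ± 1.54), and these last did not differ beyond their spread. Tgfb3 (5.35 ± 0.34), Ltbp3 (3.20 ± 0.32), Tgfb1 (2.43 ± 0.40) and Ltbp2 (0.24 ± 0.02) closed the order. In BDL the order became Itgav (284 ± 16.8), Thbs1 (190 ± 15.4), Itgb6 (105 ± 21.4), Tgfb2 (61.1 ± 4.78), Ltbp1 (19.0 ± 3.56) and Itgb8 (8.08 ± 0.57). Ltbp3, Ltbp2, Tgfb1 and Tgfb3 came last at 6.88, 4.98, 4.93 and 3.87 CPM per kilobase, with spreads that overlap between neighbours. Itgb6 thus went from below Tgfb2 to above it.

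The share of BEC-like cells with a UMI was compared after thinning each cell to 1000 UMIs, because depth differed between the groups. For Itgb6 the share was 10.6% (95% interval 9.41 to 11.8) and 7.98% (6.94 to 9.12) in sham and 39.3% (37.1 to 41.5) and 47.1% (45.5 to 48.7) in BDL. Unthinned, the Itgb6 share was 24.3% and 17.2% against 79.5% and 86.3%. In endothelial-like cells, which should lack Itgb6, the thinned share was 4.17%, 1.72%, 5.56% and 2.94% in sham 1, sham 2, BDL 1 and BDL 2, each from 1 cell. Intervals are exact binomial (Clopper-Pearson) and cover counting error only. Itgav was found in 47.9% ± 6.70 of sham and 86.3% ± 0.92 of BDL BEC-like cells (SD, n = 2), and Thbs1 in 18.2% ± 1.66 and 47.8% ± 1.04. For Ltbp2 the share was 0.14% ± 0.03 in sham and 3.16% ± 1.45 in BDL, and for Tgfb1 it was 1.06% ± 0.01 and 2.62% ± 0.76. So the transcripts of Itgb6, Itgav and Thbs1 were spread over a large part of the BDL cells, whereas at this depth Ltbp2 and Tgfb1 were found in few.

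The BDL libraries were above the sham libraries for 8 of the 10 shares, against 37.1% of 8560 genes with a mean share of at least 1%, and below for Itgb8, against 28.6%. Tgfb3 overlapped, with 1.63% ± 0.20 in sham and 1.54% ± 0.02 in BDL, but thinned to 2000 UMIs it was lower in both BDL libraries (3.34% ± 0.48 in sham against 2.55% ± 0.34 in BDL). The exact permutation test over 4 libraries, two-sided, cannot go below p = 0.33 and gave that value for 9 genes (0.37 adjusted over the 10), so no share difference could pass. Thinning left out 85 and 108 sham cells and 0 BDL cells. Unthinned, Itgb8 stood at 27.8% ± 8.59 in sham and 39.4% ± 0.83 in BDL, the reverse of its CPM and of its thinned share, and Tgfb3 at 5.51% ± 1.02 and 9.05% ± 1.99.

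**Figure D2:**
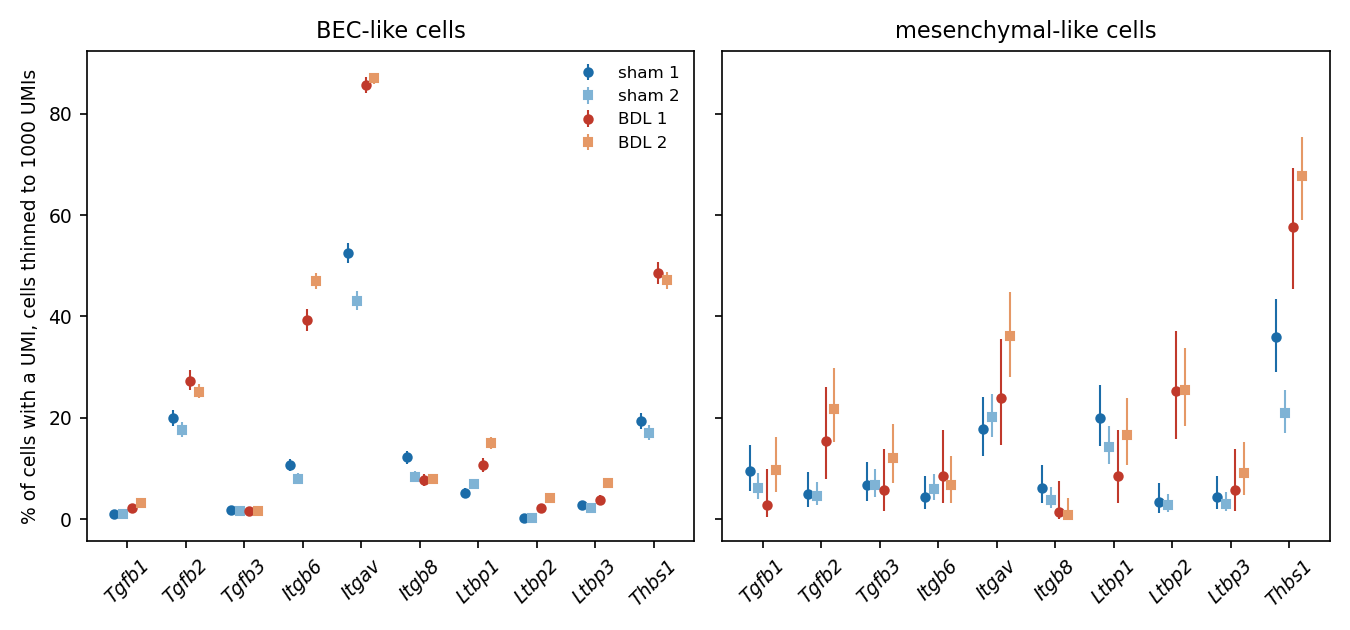
Percent of cells with at least 1 UMI of each gene after thinning to 1000 UMIs, in BEC-like (left) and mesenchymal-like cells (right), with 1 point per library and exact 95% binomial intervals. In BEC-like cells Itgb6, Itgav and Thbs1 show the widest gap between the groups, and in mesenchymal-like cells Thbs1 and Ltbp2 do.

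Ligand transcripts were distributed differently over the cell classes. These levels are descriptions, since all genes entered the clustering. Tgfb1 was highest in endothelial-like cells, at 464 and 234 CPM in sham and 396 and 191 CPM in BDL (not TMM scaled), from 23 to 34 UMIs per library. In BDL 2 its counting interval (123 to 281 CPM) overlapped that of mesenchymal-like cells (115 to 159 CPM), and in sham 2 (162 to 327 CPM) that of the immune cluster (50.4 to 362 CPM). Mesenchymal-like cells measured 135, 83.2, 146 and 136 CPM in the same order and the immune cluster 133, 155, 91.8 and 65.3 CPM, so their order differed between libraries, and BEC-like cells stood at 10.1%, 13.03%, 13.6% and 22.0% of the mesenchymal level. Tgfb3 was mainly mesenchymal, where it measured 88.8, 64.4, 81.8 and 131 CPM against 18.9, 17.3, 11.6 and 14.6 CPM in BEC-like cells. Small classes left wide intervals for Tgfb3. In sham 1 that of endothelial-like cells (3.88 to 116 CPM, 2 UMIs) overlapped the mesenchymal one (68.2 to 114 CPM). In sham 2 that of the immune cluster (0.79 to 173 CPM, 1 UMI) overlapped it too (51.2 to 79.9 CPM). Tgfb2 was shared: its mesenchymal level was 66.1% and 51.1% of that of BEC-like cells in sham and 76.1% and 108% in BDL. In BDL 2 the hepatocyte-like cells, which carried much biliary RNA, measured 395 CPM of Tgfb2 (interval 319 to 482).

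**Figure D3:**
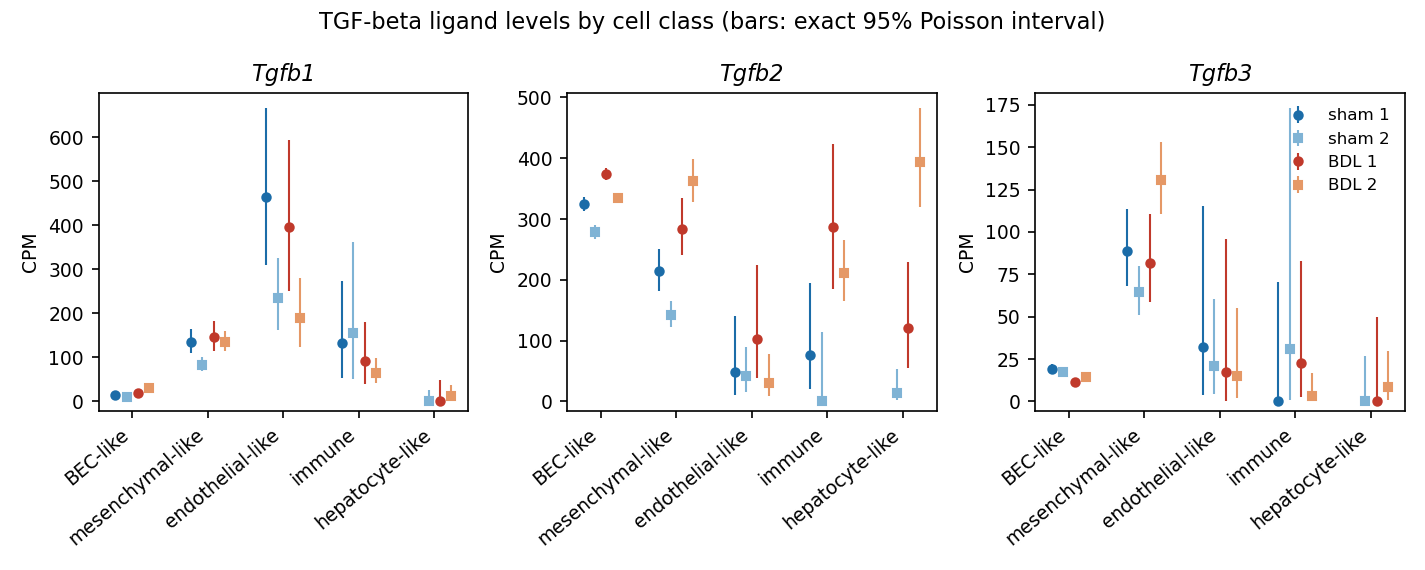
CPM of the 3 ligands by cell class and library, with exact 95% Poisson intervals for counting error (sums under 20000 UMIs, hepatocyte-like cells of sham 1, are not drawn). Tgfb1 is highest in endothelial-like cells, and Tgfb2 is found in BEC-like and mesenchymal-like cells alike. Tgfb3 has its highest value in mesenchymal-like cells of each library, with intervals that overlap those of small classes in some libraries.

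The activators divided between the classes too. Itgb6, Itgav and Itgb8 were higher in BEC-like than in mesenchymal-like cells of every library. For Itgb6 the mesenchymal level was 47.9% and 54.0% of the BEC-like level in sham and 12.5% and 11.2% in BDL. The 11 biliary markers in mesenchymal-like cells summed to 4.21%, 13.5%, 4.48% and 11.2% of their BEC-like level in sham 1, sham 2, BDL 1 and BDL 2, so in BDL 2 the Itgb6 level there equals the share of biliary marker RNA. Its part in the mesenchymal Itgb6 level was not tested. Thbs1 was higher in mesenchymal-like cells of every library, at 168% to 262% of the BEC-like level, and so was Ltbp2, at 910% and 976% in BDL. Ltbp1 was higher in mesenchymal-like cells in sham (321% and 160%) and lower in BDL (72.0% and 79.9%), an order that turned over in both BDL libraries.

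In mesenchymal-like cells, Ltbp2 and Thbs1 were higher after BDL and the other 8 genes did not pass; 5.69% of 8818 genes passed, 2.18% as higher and 3.52% as lower. Ltbp2 measured 84.1 and 97.9 CPM in sham and 295 and 490 CPM in BDL, with no overlap, and rose by 2.11 ± 0.29 on the log2 scale (SE, adjusted p = 0.0085). Thbs1 measured 1010 and 575 CPM in sham and 2251 and 2430 CPM in BDL (1.57 ± 0.32 SE, adjusted p = 0.0243). The sham libraries of Thbs1 were far apart, and without BDL 1 the log2 fold change was 1.61 and the call was lost (adjusted p = 0.0744). The log2 differences from sham 1 and BDL 1 alone were 1.80 for Ltbp2 and 1.17 for Thbs1. The median log2 fold change of the 10 genes was 0.46, against 0.01 over all genes. Markers of other cell types in the mesenchymal-like sums moved with the groups as well. Smooth muscle markers summed to 327 and 364 CPM in sham and 637 and 728 CPM in BDL. Plasma cell markers went from 97.2 and 72.3 to 152 and 213 CPM. Lower in BDL were mesothelial markers (93.0 and 121 against 19.5 and 40.6 CPM) and hepatocyte markers (141 and 347 against 115 and 108 CPM). The part of this RNA in the levels of the 10 genes was not tested.

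Among the mesenchymal members without a call, Itgb6 measured 82.6 and 73.2 CPM in sham and 83.4 and 94.6 CPM in BDL (log2 fold change 0.21 ± 0.25 SE, adjusted p = 0.703). Ltbp1 measured 286 and 193 CPM in sham against 132 and 182 CPM in BDL, a lower level in both BDL libraries (-0.59 ± 0.28 SE, adjusted p = 0.263). Itgb8 fell short of the threshold as well (51.3 and 50.2 against 16.3 and 28.0 CPM, adjusted p = 0.111), and passed in 3 of 14 alternatives, without BDL 2 (adjusted p = 0.0425), without the highest doublet scores (0.0394) and in thinned sums (0.0341). Tgfb2 (0.84, adjusted p = 0.0934) and Ltbp3 (1.003, adjusted p = 0.0942) were higher in both BDL libraries without passing, and Tgfb2 passed without sham 1 (adjusted p = 0.0409). When genes of low count were kept in, both passed (adjusted p = 0.0279 for Tgfb2 and 0.0461 for Ltbp3). Itgav, Tgfb1 and Tgfb3 had log2 fold changes of 0.46, 0.35 and 0.47 and adjusted p of 0.356, 0.516 and 0.394. Several of these log2 differences moved when sham 1 and BDL 1 alone were used: Ltbp1 stood at -1.09, Itgb8 at -1.51, Tgfb2 at 0.47, Itgav at 0.05 and Itgb6 at 0.03. Ltbp3 was at 0.84, Tgfb1 at 0.17 and Tgfb3 at -0.054.

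The mesenchymal-like class joined a cluster led by Ntm and Nrxn3, with the stellate cell genes Reln and Lrat among its 10 leading genes, of 105, 315, 27 and 22 cells in sham 1, sham 2, BDL 1 and BDL 2, and a cluster led by collagen genes with 82, 101, 44 and 111 cells, which also met 4 smooth muscle markers. The mix thus differed between the groups. In the collagen-led cluster alone, a comparison added after the values were seen, Ltbp2 (151 and 254 against 427 and 556 CPM) and Thbs1 (1458 and 1092 against 2938 and 2670 CPM) passed, where 4.7% of 5804 genes did. Their log2 fold changes were 1.28 ± 0.29 (SE, adjusted p = 0.0367) and 1.14 ± 0.26 (SE, adjusted p = 0.039), smaller than over both clusters. Tgfb2 in that cluster was 407 and 315 CPM in sham and 403 and 410 CPM in BDL, a log2 difference of 0.17 (adjusted p = 0.762). In the cluster led by Ntm and Nrxn3, Tgfb2 measured 20.9 and 75.1 CPM in sham and 74.7 and 83.6 CPM in BDL, from 7 to 63 UMIs, so this ligand was chiefly a transcript of the collagen-led cells. Ltbp2 showed the same division, at 14.9, 23.8, 13.6 and 125 CPM in the cluster led by Ntm and Nrxn3. Itgb6 in that cluster measured 108 and 78.7 CPM in sham and 129 and 223 CPM in BDL, from 19 to 66 UMIs. In the collagen-led cluster Itgb6 measured 61.7 and 53.4 CPM in sham and 65.7 and 78.1 CPM in BDL (edgeR log2 fold change 0.34, adjusted p = 0.655).

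**Figure D4:**
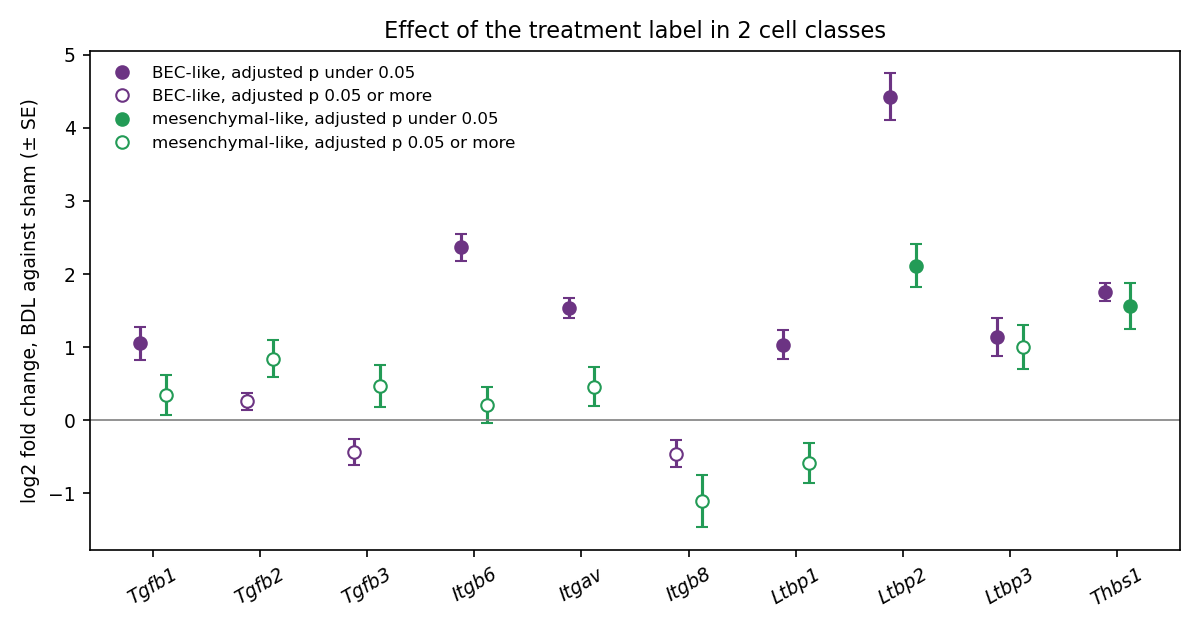
Log2 fold change of BDL against sham (± SE, edgeR, n = 2 per group) for the 10 genes in BEC-like (purple) and mesenchymal-like cells (green), filled where the adjusted p was under 0.05. Ltbp2 and Thbs1 are filled in both classes, and Itgb6 and Ltbp1 are far apart between the classes (2.36 against 0.21 and 1.03 against -0.59).

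The difference between the classes was tested itself, as an interaction over 8 sums with the mouse as a block, in which 4.43% of 15305 genes passed, 2.42% with the larger effect in BEC-like and 2.01% in mesenchymal-like cells. The effect of BDL was larger in BEC-like than in mesenchymal-like cells for Itgb6 by 2.18 ± 0.28 on the log2 scale (SE, adjusted p = 0.000411), for Ltbp2 by 2.29 ± 0.32 (SE, adjusted p = 0.000626) and for Ltbp1 by 1.62 ± 0.32 (SE, adjusted p = 0.00941). Without sham 1 the Ltbp1 difference was 1.06 and lost its call (adjusted p = 0.124), whereas Itgb6 and Ltbp2 kept theirs in each of 6 alternatives. For Itgav the difference was 1.10 (adjusted p = 0.0506), and it passed without BDL 2 (adjusted p = 0.000633) and when genes of low count were kept in (adjusted p = 0.00528). Thbs1 differed by 0.13 ± 0.28 (SE) and Ltbp3 by 0.14 ± 0.31 (SE), with adjusted p of 0.877 and 0.885. Tgfb1 (0.69), Itgb8 (0.66), Tgfb2 (-0.60) and Tgfb3 (-0.90) had adjusted p from 0.126 to 0.422. With no test, from sham 1 and BDL 1 alone, the effect in BEC-like minus that in mesenchymal-like cells was 2.07 for Itgb6, 2.36 for Ltbp2, 2.27 for Ltbp1 and 1.54 for Itgav.

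Endothelial-like cells, 19 to 122 per library, gave sums deep enough to test 2 of the 10 genes, and 0 passed with edgeR (1.52% of 2037 genes did, and 364 had an unadjusted p under 0.05), as also with DESeq2. Itgav measured 145 and 327 CPM in sham and 859 and 853 CPM in BDL, with no overlap (log2 fold change 1.76 ± 0.42 SE, adjusted p = 0.0607). Without sham 1, sham 2, BDL 1 and BDL 2 in turn, the log2 fold change of Itgav was 1.35, 2.55, 1.72 and 1.74. The biliary markers in the endothelial-like sums were 1296 and 1542 CPM in sham and 948 and 580 CPM in BDL. Smooth muscle markers were higher in both BDL libraries, as Itgav was, at 48.0 and 34.4 CPM in sham against 190 and 297 CPM in BDL, and mesenchymal markers summed to 272 and 151 CPM in sham and 155 and 1129 CPM in BDL. The part of this RNA in the Itgav level was not tested. Tgfb1 measured 601 and 358 CPM in sham and 507 and 229 CPM in BDL, which overlap (-0.44 ± 0.46 SE, adjusted p = 0.701). Ltbp2 had 0 UMIs in sham 1, sham 2 and BDL 1, where 3 UMIs, the limit taken for a count of 0, would be 48.0, 20.7 and 51.7 CPM, and 1 UMI in BDL 2.

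The immune cluster and the hepatocyte-like cells were too few for a test. In the immune cluster, Thbs1 measured 1465 and 963 CPM in sham and 1217 and 2516 CPM in BDL, and the Tgfb1 levels given above rest on 5 to 22 UMIs. The biliary markers summed there to 5480, 3944, 5419 and 9706 CPM, so the cluster carries much biliary RNA, and its Itgb6 level (709 CPM in BDL 2) was not read as its own. The hepatocyte-like cells of BDL 1 and BDL 2 likewise held 11708 and 9475 CPM of biliary markers, against 2731 CPM in those of sham 2. In the hepatocyte-like cells of sham 2 (137334 UMIs), Itgav had 40 UMIs (291 CPM) and Itgb6, Ltbp2, Ltbp3, Tgfb1 and Tgfb3 had 0, where 3 UMIs would be 21.8 CPM. Tgfb2 in the hepatocyte-like cells of sham 2, BDL 1 and BDL 2 measured 14.6, 121 and 395 CPM.

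Within the BEC-like cells, the genes differed in where they were found. These cells were clustered again after removal of the 6529 genes at an unadjusted p under 0.05 between the groups. Of the 10 genes, 1 remained among the variable genes used, Tgfb2, so its differences between subclusters are a description only. Of 6 subclusters, 4 had at least 30 cells in every library and were fitted. Subcluster 1 was led by Rasal1 and Nos2, subcluster 2 by Ankrd1, Ccn1 and Ccn2, subcluster 3 by Fos, Txnip and Jun and subcluster 4 by Dnah12 and Mmp25. Subcluster 3 also had the hepatocyte gene Alb, and no biliary marker of the list, among its 10 leading genes. Subcluster 5, led by Dmbt1 and Ptprt, had 12 and 17 sham cells and 54 and 331 BDL cells and was not tested.

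Itgb6, Itgav, Thbs1 and Ltbp2 were higher in BDL in each of the 4 fitted subclusters. The counts were 5 of 10 genes in subcluster 1 (22.4% of all genes tested there), 7 in subcluster 2 (29.1%), 8 in subcluster 3 (18.4%) and 6 in subcluster 4 (21.0%). In subcluster 2 the 7 include Tgfb3, which was lower in BDL: 19.0 and 22.5 CPM in sham against 9.33 and 11.96 CPM in BDL (log2 fold change -0.97 ± 0.25 SE, adjusted p = 0.0107). Tgfb2 was higher in BDL in subclusters 3 (0.76, adjusted p = 0.0014) and 4 (0.63, adjusted p = 0.0131), and not in subcluster 2 (-0.27, adjusted p = 0.206), where its sham level was highest at 536 and 529 CPM. Itgb8 had a log2 fold change between -0.51 and -0.41 in the 4 subclusters and passed in 0 of them.

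A finer clustering (resolution 1) gave 10 subclusters, of which 8 were fitted, and there the difference was not found in all. Itgb6 and Itgav passed as higher in 7 of the 8, Thbs1 in 6, and Ltbp2 in 5. Ltbp2 missed the filter on low counts in 2, where BDL levels were 16.4 and 9.09 CPM and 2.26 and 13.1 CPM. Itgb8, which passed in 0 of the coarser subclusters, passed as lower in 2 of these 8 (-0.79 and -0.64, adjusted p = 0.0388 and 0.0274). Counts of members that passed were 7 of 10 (28.1% of all genes), 8 (19.0%), 7 (20.2%), 6 (22.0%), 8 (19.5%), 5 (13.5%), 2 of 7 tested (9.17%) and 0 of 9 tested (2.1%). The last is the subcluster led by Dmbt1 and Anxa1, with 30 and 39 sham cells and 104 and 485 BDL cells, where 62.77% of cells belong to subcluster 5. In it Itgb6 stood at a log2 fold change of 0.38 (adjusted p = 0.482), Itgav at 0.25 (adjusted p = 0.747) and Thbs1 at 0.02 (adjusted p = 0.988). Of the 9 genes tested there with edgeR, 2 had an unadjusted p under 0.05, as did 970 of all 6488 genes tested. In the finer subcluster led by Sgcd and Igfbp5, Thbs1 did not pass (0.58, adjusted p = 0.0907), and in the one led by Csf3 and Abcc8, Ltbp2 did not (1.68, adjusted p = 0.0751).

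Ltbp1 varied with the subcluster. In subcluster 1 it measured 275 and 315 CPM in sham and 259 and 255 CPM in BDL, with the BDL libraries the lower (log2 fold change -0.24 ± 0.16 SE, adjusted p = 0.317). In subcluster 4 it measured 12.01 and 17.3 CPM in sham and 86.3 and 123 CPM in BDL (2.86 ± 0.28 SE). Subclusters 2 and 3 lay between, with log2 fold changes of 1.51 and 1.81 and sham levels of 40.9 and 30.7 CPM and of 5.79 and 11.4 CPM. Subcluster 1 was itself a mixture, and its lower BDL level of Ltbp1 was not found in the finer subclusters, where the log2 fold change was above 0 in all 8 (0.28 to 3.54) and passed in 5. Most of subcluster 1 fell into 3 of them. The one led by Rasal1 and Cpe held 209 and 112 sham and 333 and 1107 BDL cells, with Ltbp1 at 75.1 and 66.3 CPM in sham and 125 and 136 CPM in BDL (0.84, adjusted p = 0.0058). The one led by Sgcd and Igfbp5 held 246 and 469 sham and 50 and 92 BDL cells, with Ltbp1 at 469 and 395 CPM in sham and 580 and 702 CPM in BDL (0.56, adjusted p = 0.0677). The one led by Csf3 and Abcc8 held 202, 160, 350 and 493 cells, with Ltbp1 at 183 and 234 CPM in sham and 252 and 334 CPM in BDL (0.48, adjusted p = 0.117). Of these 3, the one with the most Ltbp1 thus held mainly sham cells. In subcluster 5 Ltbp1 reached 845 and 210 CPM in sham and 811 and 620 CPM in BDL. Subcluster 1 made up 22.9% and 27.6% of the BEC-like cells in sham and 36.6% and 46.6% in BDL. Subcluster 5 made up 0.46%, 0.66%, 2.75% and 8.71%, so both were larger in BDL. The finer subcluster led by Sgcd and Igfbp5, also high in Ltbp1, went the other way, with 246 and 469 sham but 50 and 92 BDL cells. The part of these shares and cell numbers in the difference over all BEC-like cells was not tested.

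Itgb6 showed a like order in sham, at 422 and 288 CPM in subcluster 1 against 28.6 to 103 CPM in subclusters 2 to 4. In BDL it measured 734 and 976 CPM in subcluster 1, 686 and 801 CPM in subcluster 2, 223 and 235 CPM in subcluster 3 and 524 and 717 CPM in subcluster 4. In subcluster 5 all 4 libraries were high, sham at 780 and 708 CPM and BDL at 696 and 870 CPM. Of the fitted subclusters, Thbs1 was highest in subcluster 2, at 634 and 521 CPM in sham and 1731 and 2153 CPM in BDL. In subcluster 5 the Thbs1 level of sham (1300 and 1606 CPM) was not below that of BDL (1281 and 1073 CPM). Ltbp2 rose from 0.58 and 3.29 CPM to 43.1 and 90.8 CPM in subcluster 2 and from 3.40 and 1.56 to 12.7 and 26.8 CPM in subcluster 1.

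**Figure D5:**
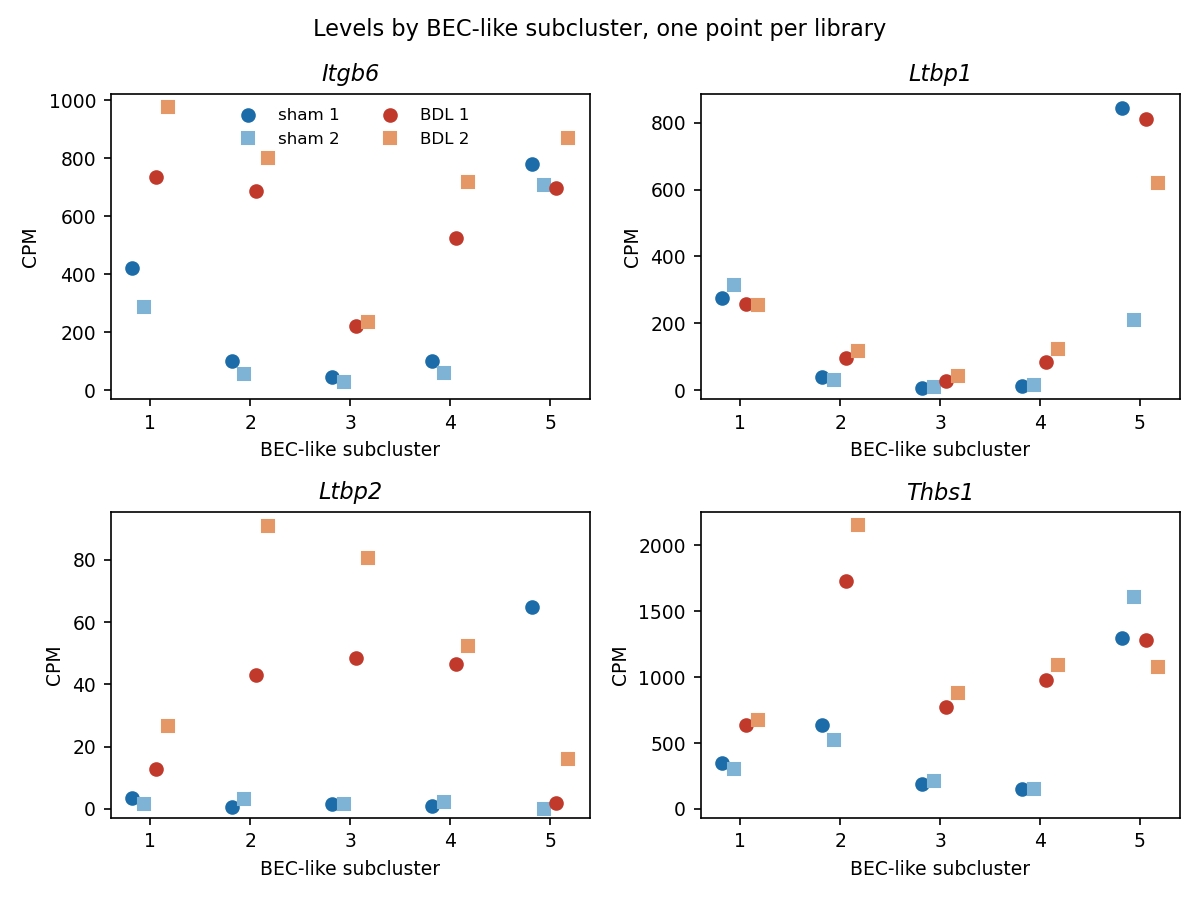
CPM of Itgb6, Ltbp1, Ltbp2 and Thbs1 by BEC-like subcluster, with 1 point per library (linear axes that start at 0). Ltbp1 spans 255 to 315 CPM over the 4 libraries in subcluster 1 and higher in BDL in subclusters 2 to 4, and Ltbp2 in BDL is lower in subcluster 1 than in subclusters 2 to 4 (subcluster 5 rests on 12 and 17 sham cells).

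In the 3 finer subclusters that hold most of subcluster 1, the log2 fold changes were 0.48 to 0.84 for Ltbp1 and 1.04 to 2.64 for Itgb6, against 1.23 to 3.54 and 2.80 to 3.51 in the 4 that lie mainly in subclusters 2 to 4. Tgfb1 in subcluster 1 measured 9.36 and 8.97 CPM in sham and 22.9 and 33.7 CPM in BDL. Differences between subclusters are descriptions and were not tested.

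The genes most like a member over 20 sums (subcluster by library, log2(CPM + 1), 6363 genes compared) were named by their Pearson correlation, which is a description because the sums share libraries, depth and group. For Itgb6 these were St3gal1 (0.97), Anxa3 (0.95) and Cd44 (0.95), the last a receptor of hyaluronan. For Ltbp1 they were Sema3e (0.98), the TGF-beta receptor gene Tgfbr2 (0.95) and Vps37b (0.95), and for Itgav Plscr1 (0.98), Cd2ap (0.97) and Cxcl2 (0.97). For Thbs1 they were Csrp1 (0.93), Anxa3 (0.91) and Snx7 (0.91), and for Ltbp2 Fblim1 (0.90), Ilk (0.90), which codes for integrin-linked kinase, and Kirrel1 (0.89). For Tgfb2 they were Snx7 (0.88), Stx3 (0.85) and Pvt1 (0.82), for Itgb8 Man2a1 (0.90), Cdk19 (0.86) and Stk39 (0.86), and for Ltbp3 Pigt (0.90), Cldn2 (0.89) and Hmbox1 (0.89).

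Of 7 receptor genes tested in BEC-like cells, 1 was higher and 2 were lower after BDL (median log2 fold change -0.07), where 14.4% and 13.0% of all genes tested were. Tgfbr2, the receptor that binds the ligand, rose from 67.8 and 81.3 to 144 and 184 CPM (log2 fold change 1.14 ± 0.16 SE, adjusted p = 0.00391). Its signalling partner Tgfbr1 measured 166 and 169 CPM in sham and 163 and 156 CPM in BDL (-0.07 ± 0.10 SE, adjusted p = 0.64). Tgfbr3, the co-receptor betaglycan, fell from 20.2 and 17.1 to 2.91 and 2.85 CPM (-2.70 ± 0.20 SE, adjusted p = 0.00044), and Eng, a co-receptor of endothelium, fell from 2.82 and 4.38 to 1.45 and 1.11 CPM, beside the lower endothelial marker sum. In mesenchymal-like cells 2 of 7 passed, against 5.69% of all genes, Tgfbr2 and Tgfbr3 with the same signs: Tgfbr2 rose by 1.77 (adjusted p = 0.00711), Tgfbr3 fell by 1.13 on the log2 scale (adjusted p = 0.0242), and the other 5 did not pass.

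Of 12 SMADs and nuclear partners, 4 were higher and 2 lower in BEC-like cells (median 0.20), against the same 14.4% and 13.0% of all genes. Smad3, which carries the signal to the nucleus, rose by 0.80 ± 0.17 (SE, adjusted p = 0.0179), Pmepa1, a feedback target, by 0.78, and Skil, a repressor, by 0.44 on the log2 scale. Smad6 and Ski fell by 1.47 and 0.79 on the log2 scale. The feedback inhibitor Smad7 measured 51.2 and 53.8 CPM in sham and 43.2 and 38.3 CPM in BDL (-0.37 ± 0.12 SE, adjusted p = 0.0681). Of 12 tested in mesenchymal-like cells, Pmepa1 alone passed, higher by 1.10, where 2.18% of all genes were higher.

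Of 24 genes listed as TGF-beta targets, 21 were tested in BEC-like cells, where 11 were higher and 3 lower (median 0.65; 14.4% and 13.0% of all genes). The list holds 4 of the members (Ltbp2, Itgb6, Tgfb1 and Thbs1), which are among the 11. Id1, an inhibitor of basic helix-loop-helix factors, measured 26.7 and 29.6 CPM in sham and 10.4 and 9.57 CPM in BDL (-1.49 ± 0.16 SE, adjusted p = 0.00129). Ccn2, a matricellular growth factor, rose by 1.12 (adjusted p = 0.00196), and Bambi, a decoy receptor, fell by 2.18 on the log2 scale. In mesenchymal-like cells 7 of 23 were higher and 0 lower, against 2.18% and 3.52% of all genes. Those with the smallest adjusted p were Timp1 (3.17), Vim (1.24) and the members Ltbp2 and Thbs1, while Ccn2 (-0.38, adjusted p = 0.52) did not pass.

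Of 20 partners of the latent complex and proteases, 16 were tested in BEC-like cells, where 6 were higher and 4 lower (median 0.37), against 14.4% and 13.0% of all genes. The plasminogen activators Plau and Plat rose by 3.41 and 3.11, and fibronectin (Fn1), which anchors latent complexes in the matrix, by 1.22 on the log2 scale. Pcsk5 fell by 1.49 on the log2 scale. Plasminogen itself (Plg), a hepatocyte product, fell from 6.22 and 7.63 to 0.42 and 0.29 CPM, beside the lower hepatocyte marker sum, whose part was not tested. In mesenchymal-like cells 3 of 16 passed, Fbn2 (2.88), Mmp14 (1.38) and Fn1 (1.25), all higher, against 2.18% of all genes.

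Of 12 genes listed as antagonists, 9 were tested in BEC-like cells (median -0.76). Of these, 0 were higher and 3 lower (Bambi, Dcn and Fstl3), against 14.4% and 13.0% of all genes. Bambi, the decoy receptor, is also counted among the targets above. Dcn is a marker of mesenchymal cells and fell from 6.41 and 11.0 to 1.45 and 2.76 CPM, beside the lower mesenchymal marker sum. In mesenchymal-like cells 1 of 9 passed, Fstl3, higher by 1.44 (2.18% of all genes were higher). Of 6 other integrin chains that pair with alpha V or bind the same peptide motif, Itgb1 rose by 0.46 and Itga9 fell by 1.48 on the log2 scale in BEC-like cells, and Itga5 rose by 1.21 in mesenchymal-like cells, beside the 27.4% and 5.69% of all genes that passed in these classes. The rise of Itgb1 was thus smaller than those of Itgb6 and Itgav in the same cells, a difference that was not tested.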

How the data were processed

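Single-cell RNA from the livers of 4 mice was measured, 1 library per mouse. The deposited matrices hold raw UMI counts per cell and gene with no normalization, per the file headers, from fixed cells barcoded by split-pool ligation with random hexamer and oligo(dT) primers, per the labels' protocols. Per the file headers the reference was called mm39refseq, and the submitters' processing notes give the build GRCm39. The aligner and the threshold for a cell are not given in the sources used here. The cell tables give reads, wells and sublibraries.

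Cells under 500 UMIs (7) or over 20% mitochondrial UMIs (10) were left out. Scrublet called 14 doublets (0.115%), too few for a caller that works, and 12180 cells remained. Leiden clusters (resolution 1, 2000 variable genes, 30 components, 20 neighbours, scanpy 1.11.5, leidenalg 0.10.2, Python 3.11.15) were named from marker lists. The naming rule was set after the data were seen: a non-biliary class needed at least 3 markers and 50% of its list, each in 5% of cells and over 2-fold higher. The other clusters were compared with the non-biliary cells on 11 BEC markers, and clusters under 20 cells stayed unnamed. Random hexamers prime along the transcript, so levels between genes are given per exon length.

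UMIs were summed per library and class and tested with edgeR 4.0.16 in R 4.3.3 (TMM, default filter, quasi-likelihood F test, two-sided, Benjamini-Hochberg over all genes tested, threshold 0.05), with DESeq2 1.42.0 as an alternative. CPM in tests are TMM scaled. SEs were derived from the F statistic. Whether the mice share litters or batches is not given, so the p-values do not account for them. The edgeR p-values rest on the spread between 2 mice a group, moderated with the spread over all genes. The scripts were tested on simulated data. Named genes are the 10 members, up to 5 genes of each pathway list with the smallest adjusted p under 0.05 in BEC-like cells and up to 4 in mesenchymal-like cells, and Tgfbr1, Tgfbr2, Tgfbr3, Smad7 and Ccn2 whatever their values. A gene that is not reported here was taken out of the target list and its counts. The members and lists were chosen with earlier results of these data known.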

Additional observations from a re-analysis of the deposited data

Results flagged for a closer look

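The effect of BDL differed between cell classes, by a test of the difference itself (edgeR, mouse as block, n = 2 mice per group), for Itgb6, Ltbp1 and Ltbp2. It was larger in BEC-like than in mesenchymal-like cells by 2.18, 1.62 and 2.29 on the log2 scale. For Ltbp2 this is a ratio to a sham BEC-like level near the floor. Both BDL libraries were above both sham libraries in BEC-like cells for all 3 genes, and in mesenchymal-like cells for Ltbp2 but not for Ltbp1. For Itgb6 in mesenchymal-like cells they were above only in TMM-scaled values: unscaled, BDL 1 (79.8 CPM) lay below sham 1 (81.7 CPM). The Ltbp1 difference was 1.06 without sham 1 (adjusted p = 0.124).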

How the results depend on the processing

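In BEC-like cells, 4367 genes and 7 members passed. Leaving out each library in turn gave 1301 to 6401 genes (1301 without sham 1, 1588 without sham 2) and 4 to 8 members, where the lone library of a group is assumed to vary like the other group. Cells with under 2 other-class marker UMIs gave 1320 genes, and each of the 8 sublibraries alone gave 618, 2311, 1826, 2169, 1982, 2034, 2235 and 1833 genes. In sublibrary 1, 3 of 7 members tested passed, beside 618 of 5255 genes tested. Each of these fits holds fewer samples or fewer cells. In mesenchymal-like cells, 502 genes and 2 members became 261 to 811 genes and 1 to 3 members without each library (261 without BDL 1, 811 without sham 1), 1025 genes and 4 members with no filter on low counts, and 779 genes without the 5% of cells of highest doublet score. In endothelial-like cells, 31 genes and 0 members became 1 to 48 genes and 0 to 1 members (1 gene without BDL 1, 14 without sham 2, 48 without BDL 2).

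In the subclusters, signs turned for Ltbp1 (-0.24 in subcluster 1) and Tgfb2 (-0.27 in subcluster 2, -0.57 to -0.017 in 4 finer subclusters), none with a call. Elsewhere signs turned only for members without a call in that fit. In BEC-like cells these were Tgfb2 (-0.044 in sublibrary 8) and Itgb8 (0.34 in sublibrary 1). In mesenchymal-like cells they were Itgb6 (-0.067 without the highest doublet scores) and Tgfb3 (-0.33 in the collagen-led cluster, -0.054 from sham 1 and BDL 1 alone). In endothelial-like cells it was Tgfb1 (0.13 without BDL 2, with a range of -1.03 to 0.13). Between classes Ltbp3 turned (-0.16 without sham 2, -0.0040 without BDL 2 and -0.12 from sham 1 and BDL 1 alone, up to 0.25). Thbs1 turned between classes as well (-0.25 without sham 1, up to 0.40). The cause was not tested. Over all alternatives in BEC-like cells, Tgfb1 kept an adjusted p under 0.05 in 15 of 23 fits, Ltbp1 in 19 of 24 and Ltbp3 in 18 of 24.

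No paired analysis was possible because no replicate number stands in the labels. With 2 mice a group, the permutation test of shares cannot pass, endothelial-like sums were deep enough for 2 members, and levels from a few UMIs in the small classes carry wide counting error. The median UMI per cell was higher in every BDL library. Thinning sums to the shallowest library left 7 members passing in BEC-like cells, where 3982 of 15048 genes tested passed.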
